A study of Mus musculus with 3 samples.

Results

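Solute carriers are membrane proteins that move nutrients, ions, vitamins, metals and metabolites across the cell surface and the membranes of organelles, mostly by facilitated diffusion, exchange or cotransport with an ion. Embryonic stem cells divide fast and are known for high uptake of glucose and of amino acids such as glutamine and leucine. The genes are numbered by family, and families mostly follow the transported substrate. The set described here is every gene of the deposited table with a mouse symbol made of Slc and a family number and with a level (FPKM, fragments per kilobase of gene, scaled to the reads of the library) of 1 or more in any of 3 libraries. The members were thus chosen by their measured levels in these same libraries. Slc7a11 and Slc40a1 were left out by name. This gave 227 genes of 379 such rows, in a table of 50043 gene IDs. Of the other rows, 131 were above 0 in 1 or more libraries but under FPKM 1 or left out by name, and 21 were at 0 throughout.

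The libraries came from the KH2 line of mouse embryonic stem cells, which carries an inducible knockout of Pold3. This gene encodes a subunit of DNA polymerase delta. There was 1 library each from passage P0, P1 and P2, with the same cell line and RNA source in all of them. Total RNA was purified on columns and made into Illumina libraries. The labels state neither the inducing agent nor when it was given relative to P0, and an uninduced or wild-type control was not analysed here. Passages therefore cannot be told apart from time in culture or from differences between single libraries, and there is no replicate check and no p-value. The question is which genes change their level over the passages.

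The P0 library held 23213528 reads, the P1 library 18059914 and the P2 library 22405670. Pold3 measured 49.2 FPKM at P0, 13.03 at P1 and 11.6 at P2. Both later libraries thus differ from P0 in the level of Pold3 too, and passage and Pold3 level cannot be told apart. All 8 embryonic stem cell markers listed were measured, with a summed level of 4095 FPKM at P0, 3946 at P1 and 4239 at P2. None passed 2-fold by the rule given below. Dppa5a, Tdgf1 and Nanog were higher at P2 than at P0, and the other markers of this list were lower. Esrrb had the largest difference, with 221 FPKM at P0, 127 at P1 and 118 at P2. The 10 trophoblast markers summed to 67.2 FPKM at P0, 113 at P1 and 149 at P2. Most of that was Krt8, Krt18 and Tfap2c, already at 21.7, 16.2 and 25.9 FPKM at P0. Of 8 compared, 6 were past 2-fold higher at P2 than at P0, against 6.72% of all genes compared. These 6 included the early trophoblast regulators Cdx2 (1.78 FPKM at P2, against 0.171 at P0), Hand1 (7.11 at P2, against 0.827 at P0) and Gata3 (2.54 at P2, against 0.282 at P0), while Tpbpa, a marker of the spongiotrophoblast, was at 0 throughout. Of 10 fibroblast markers 2 of 4 compared were higher at P2 (Col1a1 and Thy1), while Acta2 and Fbn1 stayed within 2-fold. The summed level was 8.88, 19.5 and 22.9 FPKM at P0, P1 and P2, and Thy1 and Col1a1 made up most of it in each library. The fibroblast markers Col1a2, Col3a1, Dcn, Lum and Pdgfrb stayed under FPKM 1 in every library, and Postn was at 0. The 10 intestinal or renal epithelial markers summed to 126, 128 and 123 FPKM with 0 of 2 compared past 2-fold, and most of that was Epcam, which stem cells also express. The 8 neuronal markers summed to 216, 189 and 236 FPKM with 0 of 5 past 2-fold. Most of that was Tubb3, at 120, 125 and 175 FPKM, and Stmn2, at 75.8, 42.6 and 42.2 FPKM. Snap25, Syt1 and Rbfox3 stayed under FPKM 1 in every library. The 6 blood markers summed to 9.06, 26.8 and 32.9 FPKM, and Hbb-bt was at 0. Most of that was Cd68, past 2-fold higher at P2, with 7.44 FPKM at P0, 24.9 at P1 and 30.7 at P2. Ptprc, Itgam and Hba-a1 stayed under FPKM 1 in every library. The part of these lists in the results below was not tested, and in RNA from a whole culture a change in the number of cells of a type and in RNA per cell cannot be told apart.

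Since the rule used the levels in all 3 libraries, the levels are a description. Of the 227 members, 194 had FPKM of at least 1 in every library and 29 were under 1 at P0, which includes 6 that reached 1 in the P2 library alone and 7 in the P1 library alone. The 29 could enter only by being higher later. Just inside the threshold were Slc38a9 and Slc35f1, whose highest values were 1.001 and 1.03 FPKM. Just outside were Slc11a1, Slc7a9 and Slc25a47, at 0.911, 0.906 and 0.877 FPKM. Members fell in 46 families and 16 substrate classes and lay on 20 chromosomes. The 10 highest members held 49.9% of the members' summed FPKM at P0, 45.7% at P1 and 45.9% at P2.

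The promoter of Slc5a5 is shown because this iodide carrier gene had the largest difference of all members. The promoter of Slc1a4 is shown for the amino acid carriers, and that of Slc30a1, which encodes the zinc exporter of the cell surface, for the zinc carriers. Each is the run of 250 bases before the gene's start in RefSeq (GRCm38.p6), 5′ to 3′ on the gene's strand. Capitals mark matches to the metal response element, searched as TGCGCNC and TGCACNC on both strands.
Slc5a5: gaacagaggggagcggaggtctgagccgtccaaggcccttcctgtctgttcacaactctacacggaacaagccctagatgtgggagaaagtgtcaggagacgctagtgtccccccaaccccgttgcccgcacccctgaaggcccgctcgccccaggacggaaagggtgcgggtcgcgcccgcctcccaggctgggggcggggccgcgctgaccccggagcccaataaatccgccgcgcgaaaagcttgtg
Slc1a4: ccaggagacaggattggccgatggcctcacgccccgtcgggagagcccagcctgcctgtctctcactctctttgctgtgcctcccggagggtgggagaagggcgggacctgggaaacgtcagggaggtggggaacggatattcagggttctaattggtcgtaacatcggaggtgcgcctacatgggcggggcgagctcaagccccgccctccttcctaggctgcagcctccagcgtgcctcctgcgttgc
Slc30a1: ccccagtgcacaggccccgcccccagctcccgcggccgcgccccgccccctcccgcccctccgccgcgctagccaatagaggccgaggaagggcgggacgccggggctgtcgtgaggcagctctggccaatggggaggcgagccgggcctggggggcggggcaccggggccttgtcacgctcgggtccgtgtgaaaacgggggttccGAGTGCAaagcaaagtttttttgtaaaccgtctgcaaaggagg
These lie at chr8:70892758-70893007 on the minus strand, chr11:20332714-20332963 on the minus strand and chr1:191906531-191906780 on the plus strand. The windows of Slc5a5 and Slc1a4 hold no match, and that of Slc30a1 holds 1, which starts 43 bases before the gene's start. RefSeq windows were matched by symbol for 171 members, with 227 windows in all. A metal response element was in 58 of these (25.6%) and in 21.4% of all 32851 windows. The letters TGATGNAA, the core bound by ATF4 with a C/EBP partner, were in 1.76% of the members' windows and 3.45% of all. They were in none of the windows of the 3 members past 2-fold lower at P2. With so low a share, 3 genes are too few to read anything from this. Paired p53 motifs, searched as CATG, any 6 bases and CATG again, were in 0.441% of the members' windows and 0.490% of all. Motifs may overlap, and they were chosen after the values were seen.

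For each pair of passages, genes were compared where either library reached FPKM 1, and a gene was past 2-fold where its log2(FPKM + 1) values were 1 or more apart. Only of such genes is it said below that they rose or fell. Between P2 and P0, 23 of 220 members compared rose (10.5%), against 6.72% of all 13472 genes compared, and 3 fell (1.36%), against 1.16% of all genes. Of the 23, 5 were under FPKM 1 at P0. Between P1 and P0, 13 of 221 rose (5.88%), against 4.12% of all genes, and 0 fell, against 0.549%. Nothing is read from these shares, since the levels compared also chose the members. The P2 shares of all genes, 6.72% higher and 1.16% lower, also stand beside the class counts below. The median difference of the members was 0.17 at P2 and 0.19 at P1 on the log2(FPKM + 1) scale, beside 0.07 and 0.06 for all genes compared. The 2 comparisons share the P0 library: 12 members were past 2-fold higher in both, 11 at P2 only and 1 at P1 only, the citrate carrier gene Slc13a5.

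**Figure D1:**
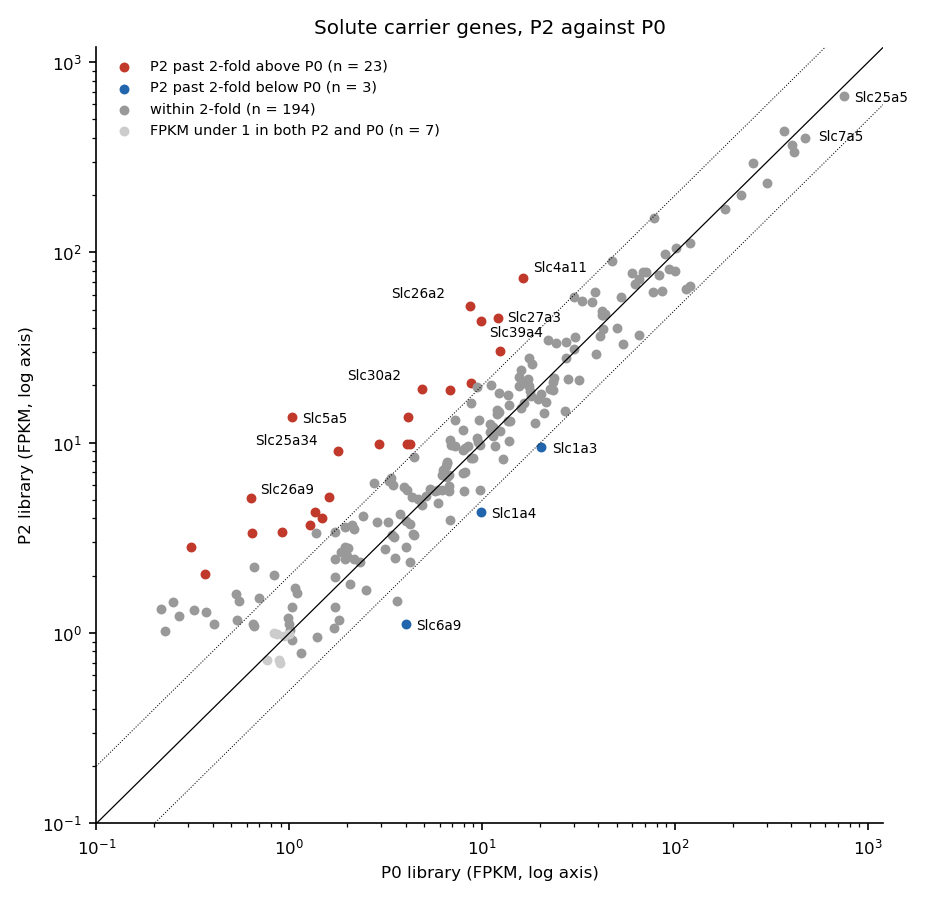
Level of each of the 227 solute carrier genes in the P2 library (vertical, FPKM, log axis) against the P0 library (horizontal, FPKM, log axis). The solid line marks equal levels and dotted lines a 2-fold ratio of FPKM; red points are the 23 genes past 2-fold higher and blue points the 3 past 2-fold lower on the log2(FPKM + 1) scale and so by a larger ratio where levels are low.

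Carriers of bicarbonate, iodide, sulfate and other anions held 5 of the 23 genes that rose. Of 13 members compared 5 rose by P2, against 6.72% of all genes compared, and none fell. Of 12 compared at P1, 4 rose, against 4.12% of all genes, and none fell. The summed level was 73.3 FPKM at P0, 171 at P1 and 206 at P2. The median difference of the class at P2 was 0.33. Slc5a5, the sodium-coupled iodide carrier by which thyroid cells take up iodide, measured 1.03 FPKM at P0, 7.51 at P1 and 13.6 at P2, from 70, 397 and 893 reads. Low at P0 and highest at P2, the gene stood 13.2-fold above P0 in the P2 library. The exact 95% interval of that ratio, which covers counting error only, ran from 10.4 to 17.1. Slc26a2, a sulfate carrier needed to sulfate cartilage proteoglycans, measured 8.67 FPKM at P0, 28.5 at P1 and 52.2 at P2. It stood in the same order, 6.02-fold higher at P2 than at P0 (interval 5.59 to 6.502). Slc4a11, a transporter of the bicarbonate family best known from the corneal endothelium, measured 16.2 FPKM at P0, 70.6 at P1 and 73.6 at P2. The P1 library was already most of the way up, with P2 only 1.04-fold above it (interval 0.9896 to 1.097).

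Slc26a9, a chloride transporter of stomach and airway, was at 0.636 FPKM at P0, 3.36 at P1 and 5.12 at P2, from 29, 119 and 225 reads. Slc4a8, a sodium-driven chloride and bicarbonate exchanger, measured 6.77 FPKM at P0, 13.7 at P1 and 18.96 at P2 and passed 2-fold at P2 only. The erythrocyte anion exchanger gene Slc4a1 gave 0.216, 0.742 and 1.35 FPKM at P0, P1 and P2 from 6, 16 and 36 reads, too low for the threshold although its ratio of P2 to P0 was 6.22 (interval 2.59 to 18.05). The other members of the class were within 2-fold. Among them Slc4a2, an exchanger found in most tissues, stood at 16.4, 21.05 and 20.7 FPKM, and the sodium bicarbonate cotransporter Slc4a7 at 8.02, 7.74 and 5.56 FPKM, lowest at P2.

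Thyroid markers did not accompany Slc5a5 past the threshold. Of 8 listed, the transcription factor genes Pax8 and Foxe1 were the ones to reach FPKM 1, 0 of 2 compared passed 2-fold at P2, and the sum of all 8 was 2.87 FPKM at P0, 3.19 at P1 and 5.32 at P2. Thyroglobulin (Tg) was at 0.06104, 0.0196 and 0.174 FPKM at P0, P1 and P2. The thyroid transcription factor gene Nkx2-1 was at 0 at P0 and 0.0883 FPKM at P2. Foxe1 measured 0.568, 0.711 and 2.02 FPKM, highest at P2. By the distance between log2 differences from P0 at P1 and P2, which rests on 3 libraries, the members most like Slc5a5 were Slc26a2, Slc4a11 and the zinc importer gene Slc39a4, at 0.60, 0.73 and 1.09 from it.

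**Figure D2:**
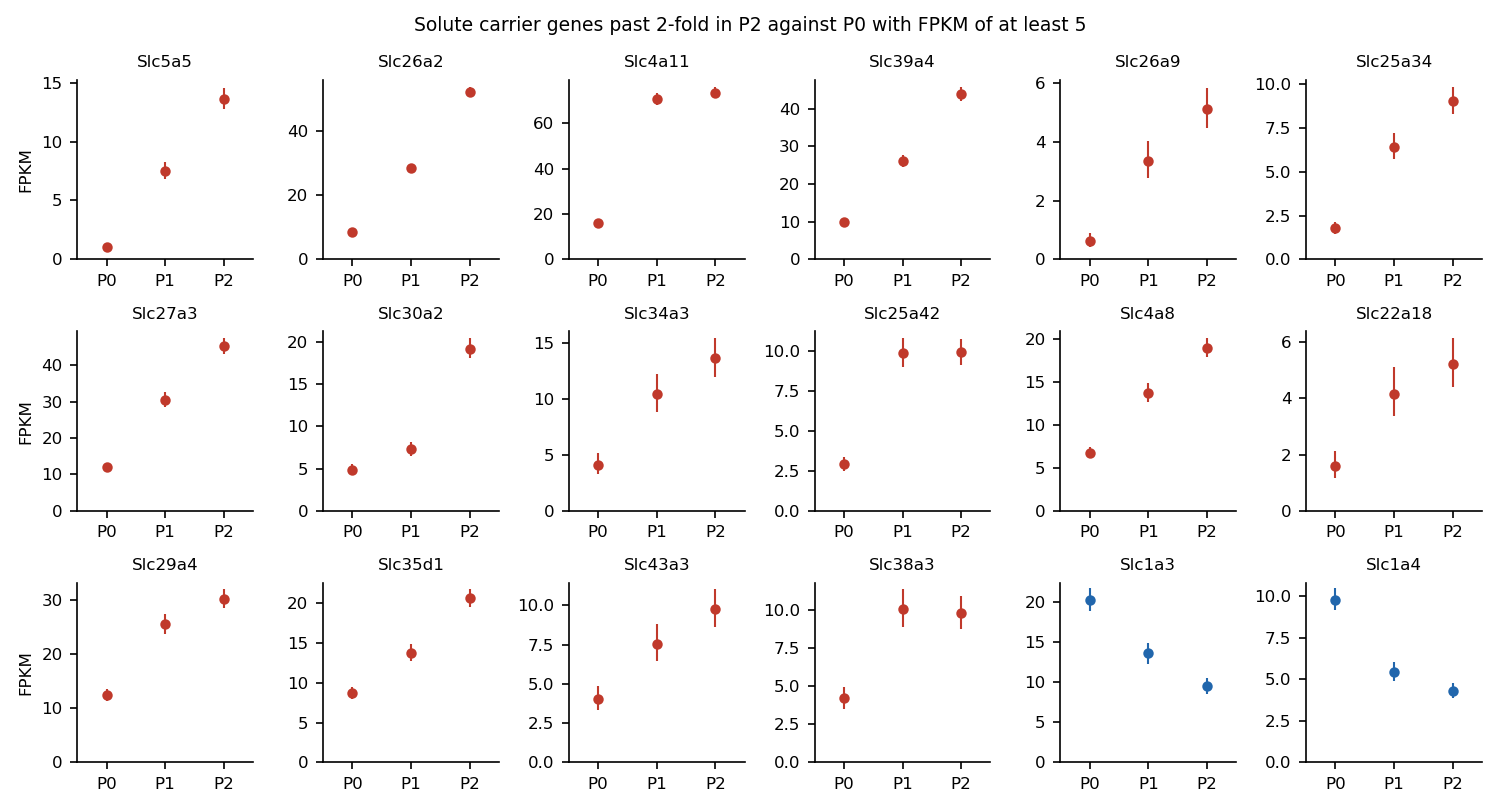
FPKM at P0, P1 and P2 (horizontal) for the 18 solute carrier genes past 2-fold between P2 and P0 that reached FPKM 5 in either library, each on its own vertical axis from 0. Bars are exact Poisson 95% intervals on the reads of 1 library; 16 genes (red) were higher at P2 and 2 (blue), Slc1a3 and Slc1a4, lower.

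The zinc and other metal carriers held 2 genes that rose by P2 among 23 members, and none that fell, with a median difference of -0.02. Slc39a4, which imports zinc in the gut and is mutated in human acrodermatitis enteropathica, measured 9.86 FPKM at P0, 26.2 at P1 and 43.9 at P2. It was highest at P2, 4.45-fold above P0 (interval 4.04 to 4.91), and had passed 2-fold at P1. Slc30a2, which loads zinc into vesicles and is needed for zinc in milk, measured 4.895 FPKM at P0, 7.29 at P1 and 19.2 at P2. Here P0 and P1 were both low and P2 was high, 2.63-fold above P1 (interval 2.32 to 2.997). It was the only one of 225 members compared to pass 2-fold between P2 and P1 (0.444%), against 0.78% of all genes higher and 0.883% lower, and 0 members were lower.

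Other zinc carriers lay within 2-fold. The surface exporter gene Slc30a1 was at 11.9, 10.3 and 14.1 FPKM at P0, P1 and P2, and the Golgi carrier gene Slc30a5 at 17.9, 17.1 and 17.6 FPKM. The highest zinc importer gene, Slc39a14, measured 92.7 FPKM at P0, 112 at P1 and 81.97 at P2, with its peak at P1. Slc39a10, another importer of the cell surface, stood at 49.8, 46.8 and 40.3 FPKM and was lowest at P2. A metal response element was in a window of 7 of the 15 zinc carrier genes with an entry and of 3 of the 18 members past 2-fold higher at P2 with one. Among all members, 54 of the 171 genes with a window held a metal response element. No share per gene was computed for genes outside the members. Metallothionein gene Mt1, which binds zinc and was added after its values were seen, measured 147 FPKM at P0, 308 at P1 and 372 at P2. Mt2, added with it, was at 0 at P0 and P2 and had 1 read at P1. For copper, the uptake gene Slc31a1 was at 10.9, 11.3 and 11.4 FPKM and its relative Slc31a2 at 8.699, 12.4 and 16.2 FPKM, Slc31a2 being 1.86-fold higher at P2 than at P0. The iron and manganese importer gene Slc11a2 measured 31.9, 27.9 and 21.4 FPKM, 1.49-fold lower at P2 than at P0 (interval 1.35 to 1.65).

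All 3 members that fell by P2 were among the 30 amino acid carriers. Of 29 compared, 3 fell and 1 rose, against 1.16% and 6.72% of all genes compared. The median difference of the class was 0.15, and its summed level was 1655 FPKM at P0, 1541 at P1 and 1403 at P2. The exact interval of the ratio of P2 to P0 lay below 1 in 10 members and above 1 in 15, so the class lay to both sides of its level at P0. Slc6a9, a glycine carrier, measured 4.001 FPKM at P0, 2.04 at P1 and 1.12 at P2, from 141, 56 and 38 reads. It was highest at P0, with P2 3.58-fold lower (interval 2.49 to 5.27). In GENCODE release M21, 30.2% of its exon bases lie under genes of the other strand, among them Ccdc24, so that without the strand reads of these genes cannot be told apart. Slc1a4, a carrier of alanine, serine and cysteine, stood at 9.800 FPKM at P0, 5.44 at P1 and 4.32 at P2, 2.27-fold lower at P2 than at P0 (interval 2.01 to 2.57). Slc1a3, a glutamate carrier of glia, measured 20.2 FPKM at P0, 13.6 at P1 and 9.48 at P2. P0 was again the highest library and P2 the lowest.

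Several abundant amino acid carriers were lower at P2 without passing 2-fold. The arginine and lysine carrier gene Slc7a3 measured 119.6 FPKM at P0, 111 at P1 and 66.4 at P2, 1.802-fold lower at P2 than at P0 (interval 1.72 to 1.89). Slc7a1, of the same function, was at 64.6, 43.5 and 36.6 FPKM and the glutamine carrier gene Slc1a5 at 113, 93.3 and 64.4 FPKM. Slc38a1, which imports glutamine with sodium, measured 26.9, 19.2 and 14.6 FPKM and the neutral amino acid carrier gene Slc6a15 6.81, 5.79 and 3.92 FPKM. In each of these 5 genes P2 was the lowest library, with differences from P0 between -0.67 and -0.84 on the log2(FPKM + 1) scale.

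The heteromeric carriers pair a light chain with the heavy chain Slc3a2, which brings it to the cell surface. Slc3a2 measured 414 FPKM at P0, 372 at P1 and 336 at P2. Its leucine-importing partner Slc7a5 was second highest by the mean of the libraries, at 472 FPKM at P0, 411 at P1 and 397 at P2, and stood below the phosphate carrier gene Slc25a3 at P1 and P2. Both were lowest at P2, 1.23-fold and 1.19-fold below P0. The partners Slc7a6 and Slc7a7, which exchange cationic for neutral amino acids, were at 42.1, 39.5 and 39.6 FPKM and 88.5, 107 and 98.3 FPKM at P0, P1 and P2. Slc7a8, a further partner, reached 1.32 FPKM at P2, against 0.3204 at P0, a difference of 0.81 that stayed under the threshold.

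Among the sodium-coupled carriers of family 38, Slc38a3, a glutamine carrier of liver and astrocytes, rose. It measured 4.21 FPKM at P0, 10.1 at P1 and 9.79 at P2, 2.33-fold higher at P2 than at P0 (interval 1.898 to 2.86). Its difference of 1.05 on the log2(FPKM + 1) scale was 0.94 with median-of-ratios scaling and 0.89 with quantile normalization, under the threshold in both. Slc38a2, which amino acid shortage induces, was at 65.3, 82.2 and 72.5 FPKM, and the imprinted gene Slc38a4 at 68.3, 68.9 and 78.5 FPKM. The lysosomal glutamine exporter gene Slc38a7 measured 15.4, 19.7 and 22.02 FPKM, lowest at P0. Beside these carriers stood 8 genes of the amino acid stress response. Of these 3 fell by P2, Atf4, Chac1 and Trib3, against 1.16% of all genes compared. The summed level of the 8 was 1261 FPKM at P0, 896 at P1 and 802 at P2. The stress-induced transcription factor gene Atf4 measured 141, 82.9 and 60.5 FPKM, asparagine synthetase (Asns) 312, 211 and 206 FPKM and the stress-induced pseudokinase gene Trib3 51.2, 25.1 and 21.7 FPKM. Not all went this way: Sesn2, an amino acid sensor gene, measured 82.3, 92.8 and 99.7 FPKM and the stress-induced transcription factor gene Ddit3 4.62, 4.25 and 5.39 FPKM, both highest at P2. The part of this response in the carrier levels was not tested.

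**Figure D3:**
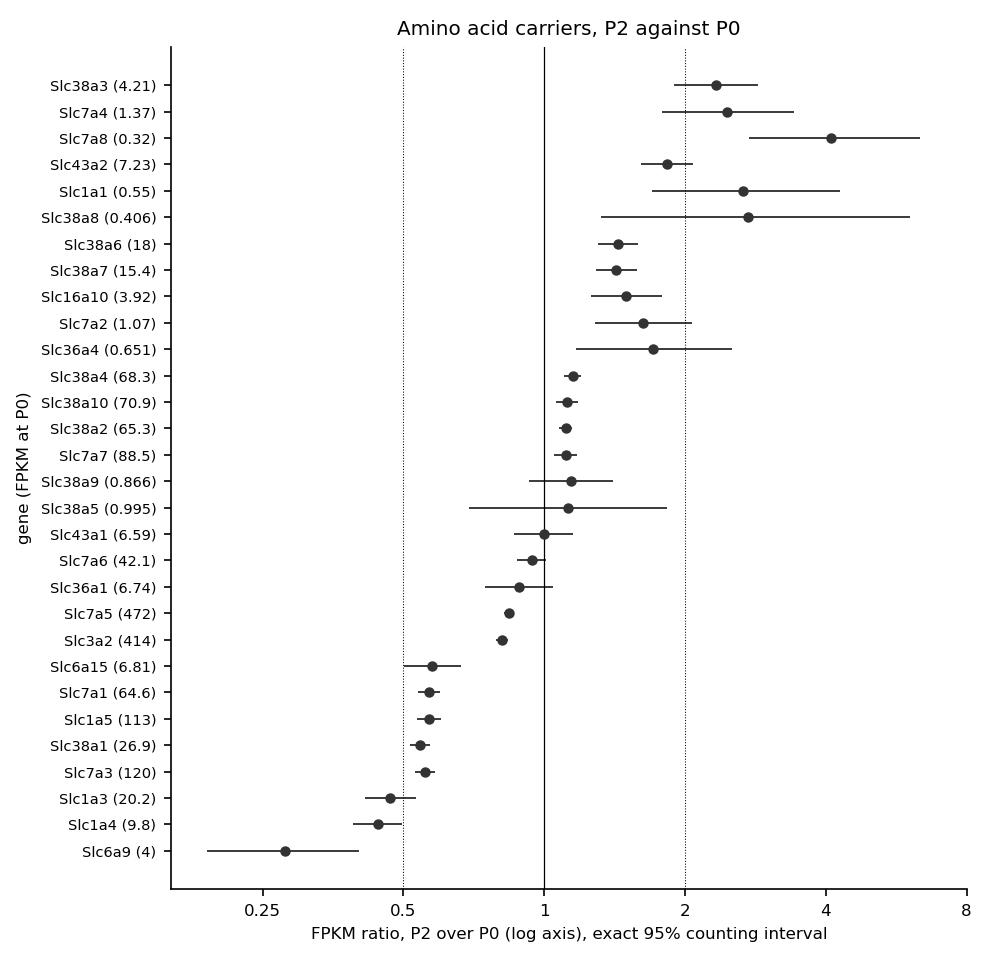
Ratio of FPKM at P2 to FPKM at P0 (horizontal, log axis) for the 30 amino acid carrier genes, ordered by their difference of log2(FPKM + 1) and labelled with the level at P0. Bars are exact 95% intervals for counting error; Slc6a9, Slc1a4 and Slc1a3 lie lowest and Slc38a3 is the 1 gene past 2-fold higher on the log2(FPKM + 1) scale.

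Mitochondrial carriers, family 25, exchange nucleotides, phosphate and metabolites across the inner mitochondrial membrane. They made up 42 members and the highest summed level of any class, 2293 FPKM at P0, 2235 at P1 and 2260 at P2. Of 41 compared, 4 rose by P2 and none fell, and the median difference was 0.23. The highest member of all was Slc25a5, an ADP and ATP exchanger, at 749.7 FPKM at P0, 711 at P1 and 666 at P2, so that P2 was 1.13-fold below P0. Its relative Slc25a4, the form of heart and muscle, was at 219, 183 and 199 FPKM. Slc25a31, the form of the male germ line, rose but stayed low, at 0.364 FPKM at P0, 0.885 at P1 and 2.03 at P2, from 18, 34 and 97 reads. Slc25a5 thus held 77.4% of the summed FPKM of these 3 genes at P0, 79.4% at P1 and 76.8% at P2.

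The phosphate carrier gene Slc25a3 measured 368, 441 and 433 FPKM and the glutathione carrier gene Slc25a39 299, 219 and 232 FPKM, both within 2-fold. Slc25a42, which imports coenzyme A, measured 2.91 FPKM at P0, 9.87 at P1 and 9.898 at P2. It was low at P0 and at nearly the same level at P1 and P2, with a ratio of P2 to P1 of 1.003 (interval 0.888 to 1.13). Slc25a34, a carrier of uncertain substrate, was at 1.79 FPKM at P0, 6.45 at P1 and 9.04 at P2, 5.05-fold higher at P2 than at P0 (interval 4.11 to 6.25). The carrier of ATP-magnesium and phosphate Slc25a24 rose as well, with 1.47, 3.11 and 4.01 FPKM. Slc25a24 and Slc25a31 missed the threshold at P2 with quantile normalization. Slc25a20, which imports acylcarnitines for fatty acid oxidation, was at 29.9, 41.5 and 58.5 FPKM, a difference of 0.94 that missed the threshold. Slc25a33, a pyrimidine nucleotide carrier, stood at 9.702, 7.39 and 5.65 FPKM, the largest difference below P0 in the class at -0.69. The citrate carrier gene Slc25a1 measured 99.8, 77.2 and 79.5 FPKM, lower in both later libraries than at P0.

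Among 17 carriers of sugars and polyols 16 were compared at P2. Of these 3 rose and none fell, and the median difference was 0.21. The glucose carriers Slc2a3 and Slc2a1 held most of the class: Slc2a3 measured 402 FPKM at P0, 326 at P1 and 365 at P2 and Slc2a1 254 FPKM at P0, 256 at P1 and 294 at P2. Slc2a3 was highest at P0 and Slc2a1 at P2, and the share of Slc2a1 in their summed FPKM was 38.8% at P0, 43.9% at P1 and 44.6% at P2. Slc5a1, the sodium-coupled glucose carrier of the gut, rose at both passages, to 2.97 FPKM at P1 and 3.39 at P2, against 0.913 at P0. Slc5a3, which imports myo-inositol, measured 1.28, 2.96 and 3.71 FPKM and Slc37a2, a sugar phosphate exchanger, 0.6397, 2.03 and 3.35 FPKM. With quantile normalization Slc5a1 and Slc5a3 missed the threshold at P2. Slc50a1, a sugar carrier of the SWEET family, stood at 9.34, 19.3 and 19.7 FPKM, 2.104-fold higher at P2 than at P0 (interval 1.77 to 2.51) and just under the threshold. Slc16a1 and Slc16a3, which carry lactate with a proton, were at 40.7, 38.1 and 36.5 FPKM and 53.9, 48.1 and 32.9 FPKM. Slc16a3 was lowest at P2, 1.64-fold below P0 (interval 1.52 to 1.76). None of 8 members compared in the monocarboxylate and di- and tricarboxylate class passed 2-fold at P2. Slc16a5 came nearest, higher at P2 by 0.97, and by 1.63 where 0.1 in place of 1 was added to FPKM. Slc13a5 rose at P1 at 0.531, 2.12 and 1.61 FPKM over P0, P1 and P2.

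**Figure D4:**
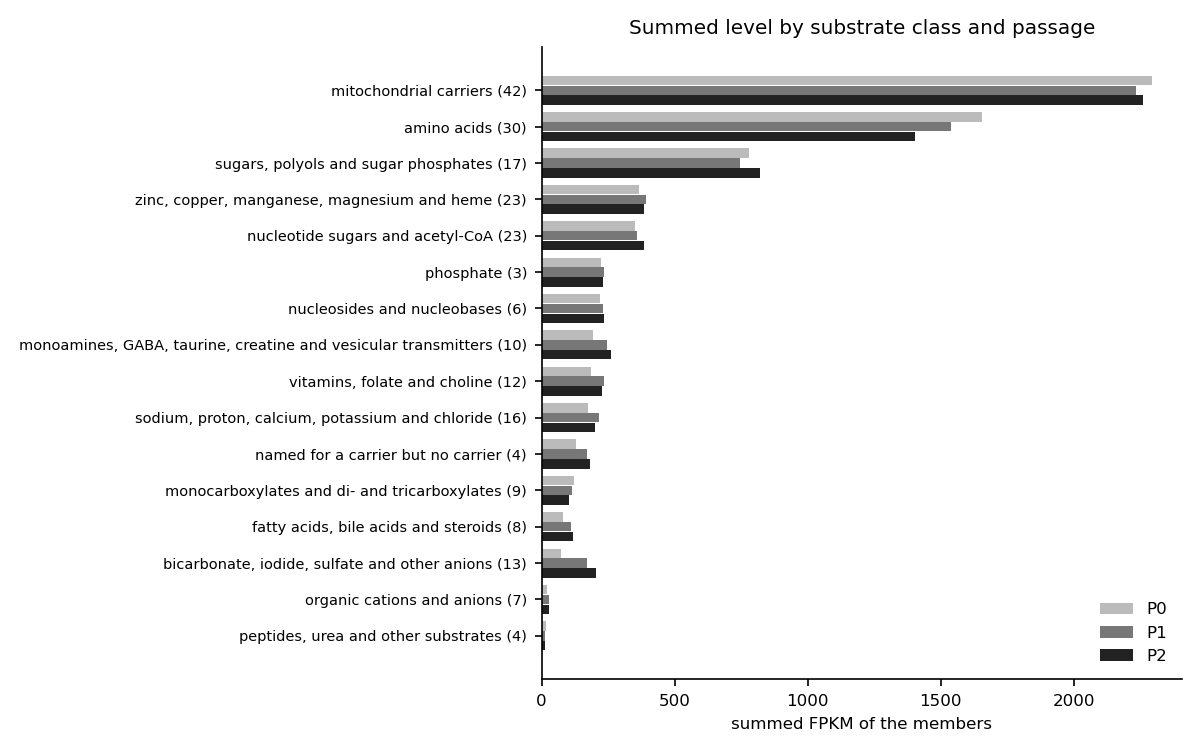
Summed FPKM of the members of each substrate class (bars from 0) at P0, P1 and P2, with the number of members in brackets. Mitochondrial carriers, amino acid carriers and sugar carriers are the 3 highest classes in each library, and the anion class goes with passage through 73.3, 171 and 206 FPKM.

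Carriers of phosphate, of nucleosides and of fatty acids included 4 genes that rose and none that fell. For phosphate, the cell surface importers Slc20a1 and Slc20a2 were at 101, 117 and 105 FPKM and 119, 106 and 112 FPKM at P0, P1 and P2. The kidney form Slc34a3 rose at both passages and measured 4.13 FPKM at P0, 10.4 at P1 and 13.6 at P2. For nucleosides, Slc29a1, the equilibrative carrier of most cells, stood at 181, 169.8 and 168 FPKM. Slc29a4, which carries monoamines, rose by P2 and measured 12.4 FPKM at P0, 25.5 at P1 and 30.3 at P2. The nucleobase carrier gene Slc43a3 also rose, with 4.06, 7.57 and 9.79 FPKM, so that 2 of 6 members of that class passed 2-fold at P2. The difference of Slc43a3 was 1.09 as deposited, 0.98 with median-of-ratios scaling and 0.93 with quantile normalization, so that it missed the threshold in both. Among 8 carriers of fatty acids, bile acids and steroids, 1 rose: Slc27a3, an acyl-CoA synthetase of the fatty acid carrier family, at 12.1 FPKM at P0, 30.6 at P1 and 45.2 at P2. The P2 library was 3.73-fold above P0 (interval 3.36 to 4.15). Slc27a4, of the same family, measured 15.8, 19.7 and 24.1 FPKM, and Slc27a2 12.8, 14.2 and 8.22 FPKM, lowest at P2.

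Nucleotide sugar carriers supply the Golgi and the endoplasmic reticulum with building blocks of glycans. Of 23 members 1 rose by P2 and none fell, and the median difference was 0.15. Slc35d1, which brings UDP-glucuronic acid and UDP-N-acetylgalactosamine to the sites of chondroitin sulfate synthesis, measured 8.72 FPKM at P0, 13.7 at P1 and 20.7 at P2. The ratio of P2 to P0 was 2.37 (interval 2.14 to 2.62). The highest genes of the class by mean, Slc35a4 and Slc35b1, were at 61.7, 62.5 and 68.4 FPKM and 41.8, 51.2 and 49.1 FPKM. Slc33a1, which carries acetyl-CoA into the endoplasmic reticulum, stood at 4.42, 6.44 and 8.42 FPKM, a difference of 0.80 at P2.

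Vitamin, folate and choline carriers had 1 of 12 members past 2-fold at P2. That was Slc23a4, known in the rat as a nucleobase carrier, of the ascorbate family, at 0.3101, 1.59 and 2.83 FPKM over P0, P1 and P2 and with only 10, 40 and 88 reads. The ascorbate importer gene Slc23a2 was at 52.1, 60.6 and 58.1 FPKM, the thiamine importer gene Slc19a2 at 38.2, 53.99 and 61.8 FPKM and the folate importer gene Slc19a1 at 19.4, 22.3 and 17.00 FPKM. Slc19a2 was highest at P2 and Slc19a1 lowest there. Of 10 carriers of transmitters, taurine and creatine none passed 2-fold, with a median difference of 0.44. The creatine importer gene Slc6a8, on chromosome X, measured 77.9 FPKM at P0, 125 at P1 and 151 at P2. Its ratio of P2 to P0 was 1.94 (interval 1.86 to 2.03), and its difference of 0.95 was just under the threshold. The taurine importer gene Slc6a6 was at 82.3, 84.7 and 75.9 FPKM, lowest at P2.

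Carriers of sodium, protons, calcium, potassium and chloride stayed mostly within 2-fold, with 1 of 15 compared past it at P2 and a median difference of -0.05. Slc24a1, the calcium exchanger of rod photoreceptors, measured 1.36 FPKM at P0, 3.74 at P1 and 4.35 at P2. Its difference was 1.18 as deposited and 0.93, under the threshold, with quantile normalization. The potassium chloride cotransporter gene Slc12a4 was at 37.00, 63.4 and 54.6 FPKM, lowest at P0. Slc9b2, a sodium and proton exchanger, was at 3.61, 3.15 and 1.48 FPKM, and P2 was 2.45-fold below P0 (interval 1.802 to 3.35), a difference of -0.90. Among 7 carriers of organic cations and anions the imprinted gene Slc22a18 rose by P2, at 1.602, 4.16 and 5.196 FPKM. Slc22a17, a receptor for lipocalin in the same family, measured 3.76, 8.23 and 4.202 FPKM and was high at P1 only. None of 3 compared carriers of peptides and other substrates passed 2-fold at P2, and the peptide importer gene Slc15a1 stood at 4.21, 2.09 and 2.36 FPKM, highest at P0. The 4 members named for a carrier that are no carriers themselves were within 2-fold, among them the scaffold gene Slc9a3r1 at 47.2, 77.4 and 90.4 FPKM.

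**Figure D5:**
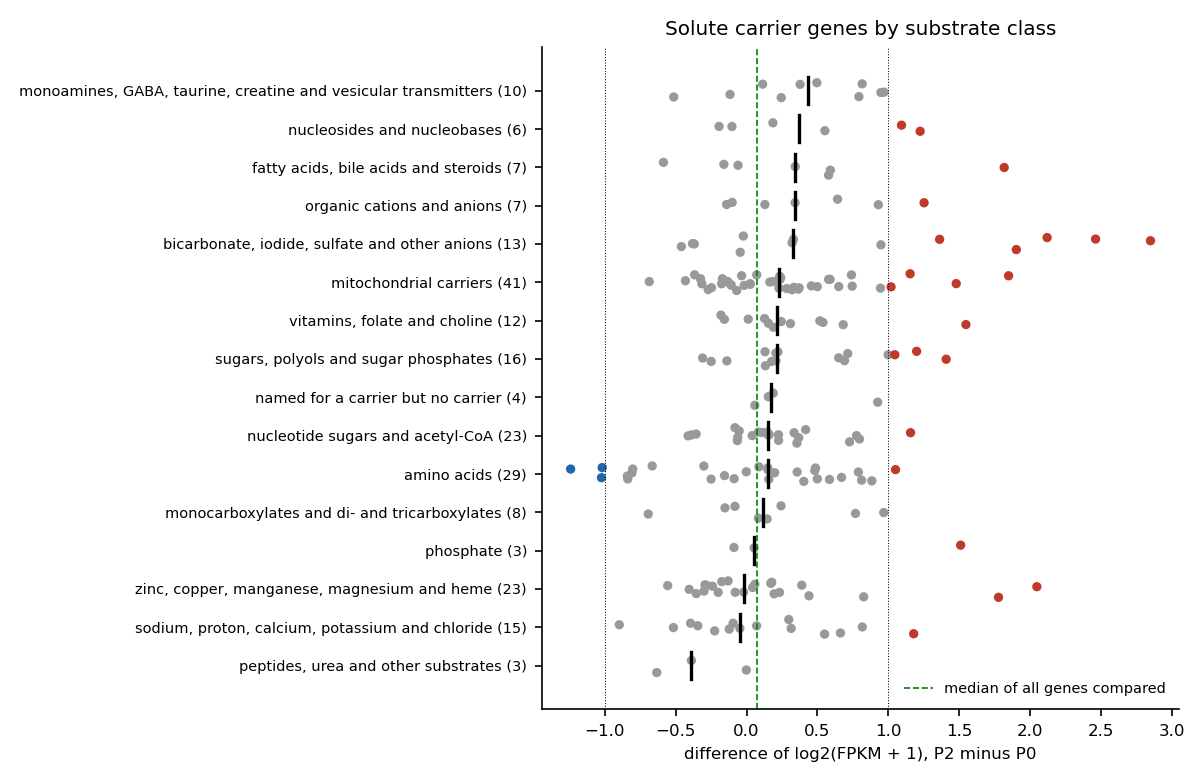
Difference of log2(FPKM + 1), P2 minus P0, for the members of each substrate class compared (number in brackets). Black bars are class medians, the dashed line is the median of all genes compared and dotted lines mark the threshold of 1; red points (23) rose and blue points (3), all in the amino acid class, fell.

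Properties the rule did not use were also looked at. Of the 227 members 18 had over 10% of their exon bases under another gene in GENCODE release M21, and among the 26 past 2-fold at P2 this held for Slc6a9 alone. Of the genes named above within 2-fold, Slc4a2, Slc20a1, Slc25a33, Slc27a2 and Slc33a1 are also among the 18. Reads behind a member were few in places: 8 members had under 20 reads in 1 or more libraries, and the lowest count was 4. Chromosome X held 11 members, among them Slc25a5, Slc6a8 and Slc7a3, whose ratios of P2 to P0 were 0.889, 1.94 and 0.555.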

How the data were processed

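RNA of 3 libraries, 1 per passage, was analysed. The authors deposited FPKM values in 1 table of 50043 gene IDs. Per the submitters' processing notes, the tools were TopHat2 2.0.9 and Bowtie2 2.0.6 and the build was mm9. Not given in the sources used here are the counting program, the annotation and whether libraries were stranded. Symbols came from GENCODE release M21 (49326 IDs matched). Each FPKM is a read number over the product of gene length and library total, so whole reads were recovered from common divisors of the values, for 26291 of 26291 IDs above 0 within a relative tolerance of 1e-09. A common factor of reads and length was set by the mean M21 transcript length (within 1 base for 83.7% of IDs). Recovered reads summed to 101% of the totals. On a gene of 2000 bases, 3 reads equal 0.0646 FPKM at P0, 0.0831 FPKM at P1 and 0.0669 FPKM at P2. Ratios carry exact conditional 95% (Clopper-Pearson) intervals, which cover counting error only.

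Values were compared as log2(FPKM + 1), which understates changes of low genes. Substrate classes were assigned by family and, where a family carries different substrates, gene by gene. Members, lists and named genes were chosen with earlier results of these data known. Named genes were Slc5a5, members past 2-fold with FPKM of at least 5, the highest members overall and by class, the largest difference per class, partner chains and members near the threshold; others were named after their values were seen, and some genes under the rule are not reported here. Genes with near-identical copies or overlapping exons are uncertain. The alternatives were other pseudocounts, floors and scalings, and the calls were tested on simulated data. These data held counting error only, with changes set in genes above FPKM 5, so they do not cover variation between libraries. The work used pandas 2.3.3, scipy 1.17.1 and numpy 2.4.6 in Python 3.11.15, and matplotlib 3.10.9 for figures.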

Additional observations from a re-analysis of the deposited data

How the results depend on the processing

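In the order P1 over P0, P2 over P0, P2 over P1, the main counts were 13, 23 and 1 members higher and 0, 3 and 0 lower. A pseudocount of 0.1 gave 31, 38 and 4 higher, with 1 lower between P2 and P1. Rescaling to 1000000 gave 22 higher at P1 and 3 higher between P2 and P1. Chosen after seeing the data, a ratio of FPKM itself of at least 2 gave 35, 39 and 4 higher, with 1 lower at P1 and 2 lower between P2 and P1. The other counts, under a floor of FPKM 5, no floor, median-of-ratios scaling, quantile normalization and leaving out members with exon overlap, were within 1.5 times the main ones. Of the members past 2-fold at P2, 22 were chosen by the naming rules and checked gene by gene. All 22 still passed it with the pseudocount of 0.1 and with rescaling. With median-of-ratios scaling 20 passed it, and with quantile normalization 19. Slc5a1, Slc5a3, Slc25a24 and Slc25a31 were not among these 22, and they missed it with quantile normalization. Of all 23 members higher at P2, 19 stayed past 2-fold with median-of-ratios scaling and 16 with quantile normalization. These last 2 scalings moved the median of all genes between P2 and P0 to -0.05 in both, against 0.07 as deposited. Small differences are to be read against that shift. None of the 22 changed sign in these alternatives. Among named members near 0, P2 minus P0 changed sign in Slc20a1 (0.05; -0.08 with median-of-ratios scaling, -0.01 with quantile normalization), in Slc22a17 (0.13; -0.05) and Slc38a9 (0.09; -0.15) with quantile normalization, and in Slc15a4 (-0.0012; 0.0069) with rescaling. No paired analysis was possible because each passage has 1 library. Depth limits the members of lowest level, and counting error is all that the intervals cover.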

Other observations

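Carriers whose symbols do not follow the numbered pattern were listed separately: 48 genes, 47 with a row and 29 compared at P2. Of these 1 rose by P2 and none fell, against 6.72% and 1.16% of all genes compared. The median difference was 0.13, beside 0.07 for all genes. The gene that rose was Flvcr2, a choline carrier of the heme exporter family, at 0.539 FPKM at P0, 3.39 at P1 and 5.43 at P2. Its relative Flvcr1 measured 2.899, 4.46 and 4.35 FPKM. The mitochondrial pyruvate carrier subunits Mpc1 and Mpc2 were at 1.33, 1.88 and 3.29 FPKM and 7.16, 8.43 and 7.76 FPKM at P0, P1 and P2, and the uncoupling protein gene Ucp2, a mitochondrial carrier, at 111, 115 and 132 FPKM. The serine carrier gene Sfxn1 of mitochondria stood at 38.99, 32.1 and 27.6 FPKM, lowest at P2.

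Rows that were at 0 in every library included the kidney carriers Slc22a2, Slc22a8, Slc22a12 and Slc34a1 and the gut exchanger Slc9a3. The bile acid and steroid carrier Slc51a, a chain that works with the product of Slc51b, measured 1.72, 0.865 and 2.45 FPKM, with 64, 25 and 88 reads, while Slc51b was listed at 0. The cystine carrier partner pair Slc3a1 and Slc7a9 did not reach the threshold, and Slc7a9 was at 0.121, 0.465 and 0.906 FPKM at P0, P1 and P2.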
